A study of Rattus norvegicus with 399 samples.

Results

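Hspb1, Hspa8 and Hsp90aa1, 3 cytosolic chaperone genes of the rat, were followed across heart, kidney, liver, lung and ovary of animals exposed to 2 isomers of dichlorobenzene. They were taken as the rows whose probe name, less its numeric ending, is one of these symbols. This gave 3 of 2654 probe rows, or 3 of 2603 gene symbols, with 1 probe for each gene. The measurements are TempO-Seq counts of the Rat S1500+ panel, a targeted assay in which a pair of oligonucleotides is ligated on a chosen stretch of a transcript and the ligated pairs are sequenced. All animals were female Sprague-Dawley rats aged 9 weeks, and tissues came from study day 5. The treated groups received 1,2-dichlorobenzene (1,2-DCB) at 1, 10, 30, 100, 250 or 500 ppm, or 1,4-dichlorobenzene (1,4-DCB) at 1, 10, 50, 150, 400 or 800 ppm. Sources used here do not name the route of exposure. Each compound had its own control rats at 0 ppm, 10 per compound, and 5 rats per concentration, and the same rats gave the 5 tissues, except that 1 kidney library of 1,4-DCB at 1 ppm is not analysed here. The 390 libraries that the submitters marked as used entered the comparisons and 9 did not, which left 3 to 5 libraries per exposed group and 8 to 10 per control group.

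Molecular chaperones bind unfolded stretches of other proteins and keep them from clumping. Hspb1 encodes HSP27, a small heat shock protein that holds unfolding proteins without using ATP. Hspa8 encodes HSC70, the constitutive member of the HSP70 family, which folds new proteins, uncoats clathrin vesicles and carries proteins to the lysosome. Hsp90aa1 encodes HSP90 alpha, the inducible cytosolic HSP90, which matures kinases and steroid receptors. All 3 genes are known targets of heat shock factor 1, which binds heat shock elements, runs of alternating GAA and TTC units spaced by a pair of bases. In liver, such genes are known to rise when proteins are damaged, for example by reactive metabolites.

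The start regions of Hspa8 and Hspb1 are printed here because both genes rose in the liver and because they differ in the number of such units. Each window runs from 250 bases before the annotated start to 50 bases after it and is written 5′ to 3′ on the gene's own strand, from RefSeq's promoter table for GRCr8. Capitals mark the units of heat shock elements found by searching GAANNTTC and TTCNNGAA, each of which reads the same on both strands, and their 3-unit forms GAANNTTCNNGAA and TTCNNGAANNTTC. The table matched these genes and has no entry for Hsp90aa1. The Hspa8 window lies at chr8:50080264-50080563 on the plus strand and the Hspb1 window at chr12:26432252-26432551 on the minus strand.
Hspa8: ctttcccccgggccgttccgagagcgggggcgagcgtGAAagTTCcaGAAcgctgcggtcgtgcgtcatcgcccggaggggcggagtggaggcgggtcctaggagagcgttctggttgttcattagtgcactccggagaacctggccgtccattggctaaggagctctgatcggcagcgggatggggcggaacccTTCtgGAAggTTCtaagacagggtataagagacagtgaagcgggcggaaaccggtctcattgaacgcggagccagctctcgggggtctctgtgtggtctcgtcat
Hspb1: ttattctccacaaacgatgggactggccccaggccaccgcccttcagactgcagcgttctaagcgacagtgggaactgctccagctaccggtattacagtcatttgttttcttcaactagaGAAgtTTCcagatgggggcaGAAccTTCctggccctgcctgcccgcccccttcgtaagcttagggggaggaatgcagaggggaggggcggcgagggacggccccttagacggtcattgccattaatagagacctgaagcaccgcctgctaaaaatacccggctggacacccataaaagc

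The Hspa8 window held a pair of 3-unit elements. The first began at position -213 from the start, at bases 38 to 50 of the window, and the second at -55, at bases 196 to 208. Each of them contains both 2-unit forms, overlapping by their middle unit. The Hspb1 window held 2 matches of GAANNTTC, which began at -129 and -109 from the start, and no 3-unit match. Of 33469 windows in the table, 15.9% held a 2-unit form and 267, or 0.798%, held a 3-unit form on either strand. These matches are letters in a window, and binding was not measured.

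Library totals lay between 1.202 M and 69.77 M counts, with a median of 22.56 M. Counts of a minority of probes, Hspa8 among them, were whole multiples of a step, since the detector oligonucleotides of abundant transcripts are attenuated and their counts multiplied back. The step was 10 for Hspa8 and 1 for both other genes. With the counts of every probe divided by its step, library totals lay between 0.5434 M and 19.38 M. Marker sums separated the labelled tissues. Hepatocyte markers summed to at least 423381 CPM (counts per M counts of the library total, M being mega) in every liver library and at most 10851 CPM in any other. Cardiomyocyte markers were at least 93398 CPM in heart against at most 82.1 CPM elsewhere, renal tubule markers at least 57.6 against at most 2.53 CPM, and ovarian markers at least 7937 against at most 75.2 CPM. None of the 7 lung epithelial markers listed is on the panel, so the lung label was not checked. RefSeq lists 33 pseudogenes named for Hspa8 and 16 named for Hsp90aa1, and none for Hspb1. Whether the probes separate them could not be checked, so the source of Hspa8 and Hsp90aa1 reads is uncertain to that extent.

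Control livers had the lowest CPM of all 5 tissues for each of the genes. Hspb1 was at 3.51 ± 0.93 CPM (SD, n = 10) in the control livers of 1,2-DCB, 61.6 ± 13.4 CPM in kidney (n = 9), 171 ± 53.9 CPM in ovary, 655 ± 121.9 CPM in heart and 890 ± 272 CPM in lung (n = 10 each). The ranges of lung and heart overlapped, and every other neighbouring pair in this order was apart. Hspa8 was at 13123 ± 2460 CPM in these livers and at 92355 ± 10122 CPM in heart, while lung stood at 134303 ± 17932, ovary at 143388 ± 13926 and kidney at 144338 ± 16120 CPM. For Hspa8 each of the 4 tissues other than liver overlapped its neighbour in this order. Hsp90aa1 was at 3.47 ± 1.48 CPM in liver, 17.2 ± 6.35 CPM in heart and 18.9 ± 3.18 CPM in kidney, whose ranges overlapped, then 46.1 ± 11.95 CPM in lung and 56 ± 14.3 CPM in ovary, which overlapped too. The controls of 1,4-DCB had the same lowest tissue, with 4.07 ± 1.11 CPM of Hspb1, 11020 ± 1651 CPM of Hspa8 and 2.33 ± 0.45 CPM of Hsp90aa1 in liver (n = 10). For Hspa8 and Hsp90aa1 the position of the liver rests on the scaling, and it moved with TMM factors only. With counts divided by the step, liver stayed lowest for both genes in the controls of both compounds. The 1,2-DCB control livers were then at 8479 ± 1509 CPM for Hspa8 and at 22.5 ± 9.82 CPM for Hsp90aa1, whose range overlapped that of heart. In the 1,2-DCB control livers the 8 hepatocyte markers alone took 448637 to 518358 CPM. With TMM factors (a scaling by the bulk of the probes) these livers stood at 81044 ± 11363 CPM for Hspa8, next after kidney. For Hsp90aa1 they stood at 21.8 ± 10.1 CPM, after lung and ovary. For Hspb1 the liver was lowest under all 3 scalings tried, at 21.8 ± 6.05 CPM with TMM factors. In the controls of 1,4-DCB with TMM factors, liver was 4th of the 5 tissues for Hspa8 (66124 ± 11185 CPM) and for Hsp90aa1 (13.9 ± 2.51 CPM).

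**Figure D1:**
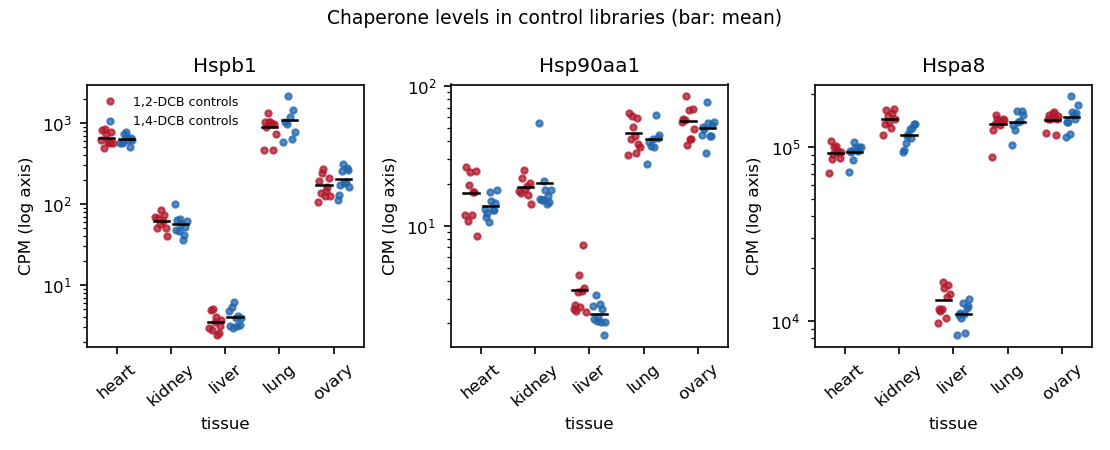
CPM on a log axis in single control libraries of the 5 tissues for Hspb1, Hsp90aa1 and Hspa8, with 1,2-DCB controls in red and 1,4-DCB controls in blue; black bars are means. Liver sits lowest in each panel on this scale, and 1 kidney control of 1,4-DCB stands out at 54.4 CPM of Hsp90aa1.

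Hspb1 rose in the liver with 1,2-DCB, strongly at 500 ppm and slightly at 250 ppm, and passed the test nowhere else. Its CPM in the 10 control livers ran from 2.44 through a median of 3.30 to 5.01. At 500 ppm the 5 livers read 193 (F601), 187 (F602), 125.6 (F603), 112.6 (F604) and 195 (F605) CPM. All of these lay far above every control. The fitted log2 fold change was 5.15 ± 0.22 (SE), a 35.4-fold rise with a 95% interval of 26.2 to 47.9, at an adjusted p of 7.76e-21. Adjusted p-values here come from edgeR's quasi-likelihood test with Benjamini-Hochberg adjustment over all tested probes, and a probe is said to be called, to rise or to fall where this p is below 0.05. At 250 ppm the livers read 10.5, 10.6, 8.38, 4.66 and 12.5 CPM for F501 to F505. All but F504 stood above every control, and the log2 fold change was 1.07 ± 0.22 (2.10-fold, 1.56 to 2.82, adjusted p = 0.000259). These calls stand beside a background of 67.8% of probes called in liver at 500 ppm and 24.8% at 250 ppm. By size, the change of Hspb1 was the 11th highest of 2019 tested probes at 500 ppm.

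Between 1 and 100 ppm of 1,2-DCB the liver values of Hspb1 overlapped the controls. Group means were 3.98 ± 0.93, 4.41 ± 1.76, 3.97 ± 0.96 and 4.03 ± 1.41 CPM (n = 5 each) at 1, 10, 30 and 100 ppm, and log2 fold changes lay between 0.08 and 0.29. None was called, as against 0.0165% of probe tests called over 1 to 30 ppm and 2.13% at 100 ppm. From 250 to 500 ppm the level went from a mean of 9.34 ± 3.0 to one of 163 ± 40.0 CPM, with no overlap of the groups. In counts, the control livers held at most 266 reads of Hspb1 each, and the livers at 500 ppm 5066 to 8320.

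With 1,4-DCB, Hspb1 in the liver read 7.23, 7.26, 6.70, 3.57 and 4.23 CPM in F601 to F605 at 800 ppm, beside controls from 2.94 through a median of 3.89 to 6.26 CPM. The first 3 of these rats lay above every control and the others among them. The log2 fold change was 0.42 ± 0.18 (1.34-fold, 1.05 to 1.71), which missed the threshold at an adjusted p of 0.0623. It passed without control F3 (0.46, adjusted p = 0.0456), control F5 (0.52, 0.0152), F604 (0.55, 0.0186) or F605 (0.49, 0.0399), and with library totals in place of TMM factors (0.50, adjusted p = 0.029). At 400 ppm the mean was 5.70 ± 1.23 CPM (n = 5) and the log2 fold change 0.40 ± 0.18 (adjusted p = 0.202).

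**Figure D2:**
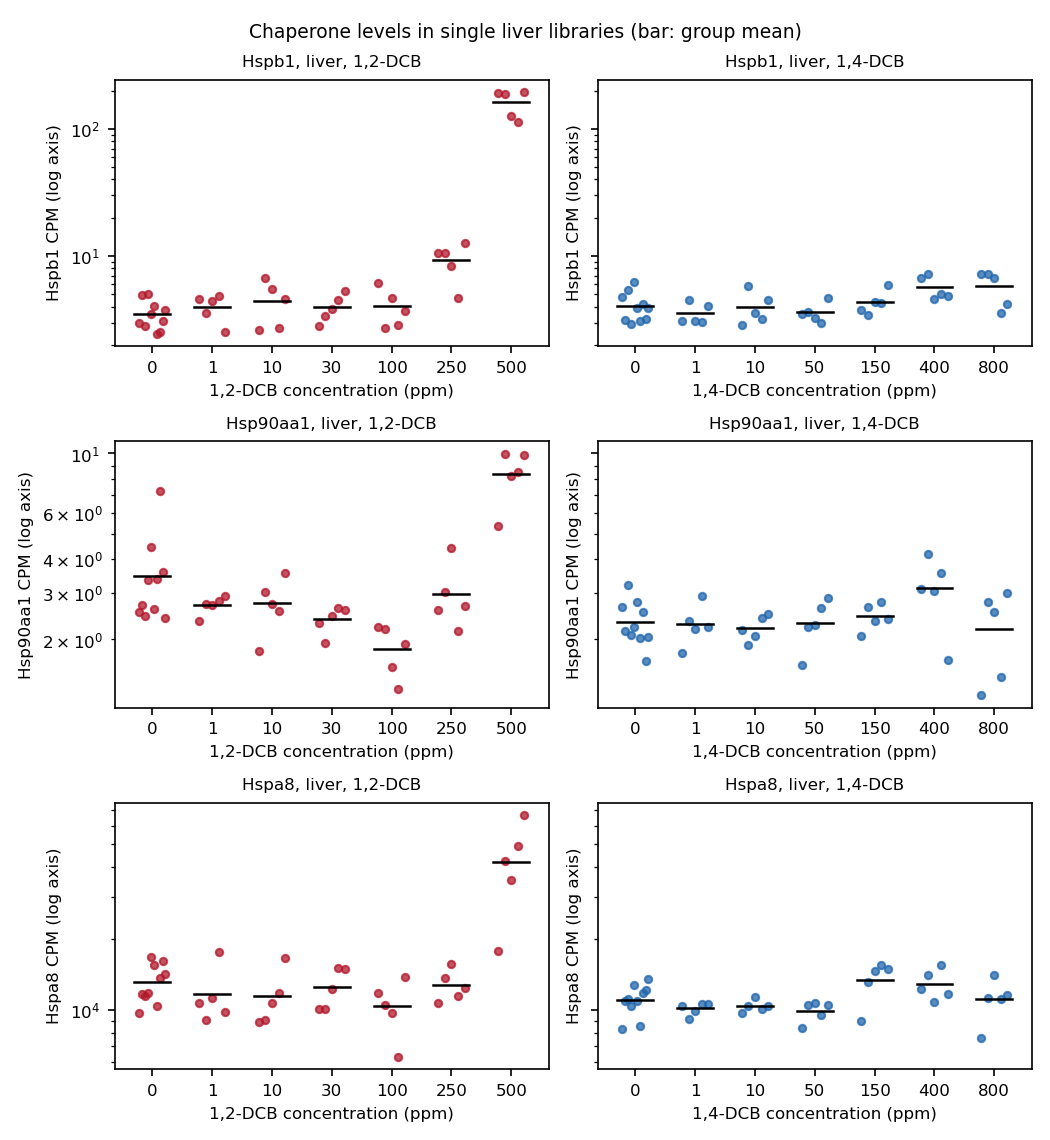
CPM on a log axis in single liver libraries against concentration in ppm, with 1,2-DCB on the left and 1,4-DCB on the right; black bars are group means. At 500 ppm of 1,2-DCB Hspb1 sits between 112.6 and 195 CPM and Hspa8 above every control, while Hsp90aa1 is lowest at 100 ppm and highest at 500 ppm.

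Hspa8 rose in the liver at 500 ppm of 1,2-DCB. Its controls there ran from 9737 through a median of 12716 to 16669 CPM. The 5 exposed livers read 17695 (F601), 42530 (F602), 35252 (F603), 49368 (F604) and 66550 (F605) CPM. All were above every control, F601 by little and F605 by the most. The log2 fold change was 1.27 ± 0.17 (2.42-fold, 1.91 to 3.05, adjusted p = 3.54e-08). By size it was the 234th highest of 2019 tested probes, of which 67.8% were called. Mean CPM went from 13123 to 42279, a larger ratio than the fitted one after TMM scaling. With library totals alone the log2 fold change was 1.69 (adjusted p = 1.37e-09), and the median of all tested probes was 0.44 in place of 0.03. That scaling also moved the split of calls in this comparison from 707 higher and 661 lower to 1017 higher and 397 lower. At 1 to 250 ppm the log2 fold change of Hspa8 in liver lay between -0.36 and -0.16, with no call. With 1,4-DCB at 800 ppm the livers read 7576, 11198, 14021, 11119 and 11516 CPM for F601 to F605, beside controls of 8326 to 13442 CPM. These overlapped, and the log2 fold change was -0.09 ± 0.10 (95% interval -0.30 to 0.11, adjusted p = 0.521).

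In the kidney, Hspa8 was called at 800 ppm of 1,4-DCB. Controls ran from 93276 through a median of 116640 to 135689 CPM, and the exposed kidneys read 172832 (F601), 162861 (F602), 160005 (F603), 165302 (F604) and 159694 (F605) CPM. Every exposed kidney was above every control. The log2 fold change was 0.52 ± 0.14 (1.43-fold, 1.19 to 1.72, adjusted p = 0.0147), where 5.03% of probes were called. Without F601, the highest of them, it was 0.49 and the adjusted p 0.0507. At 400 ppm the kidneys read 138180, 163474, 124874, 162992 and 147045 CPM, 4 of them above every control, with a log2 fold change of 0.43 ± 0.14 that was not called (adjusted p = 0.38). With 1,2-DCB at 500 ppm the kidney mean was 146866 ± 7149 CPM (n = 5) against 144338 ± 16120 CPM in controls (n = 9), and the log2 fold change was 0.15 ± 0.13 (adjusted p = 0.477). The control kidneys of 1,4-DCB had a lower mean, 116599 ± 15163 CPM (n = 10), than those of 1,2-DCB. The difference between the control groups was -0.23 ± 0.11 on the log2 scale and was not called (adjusted p = 0.793).

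Hsp90aa1 moved both ways in the liver with 1,2-DCB, lower at 100 ppm and higher at 500 ppm. The 10 control livers ran from 2.41 through a median of 3.02 to 7.25 CPM. At 500 ppm the livers read 5.36 (F601), 9.99 (F602), 8.23 (F603), 8.51 (F604) and 9.89 (F605) CPM. All but F601 were above every control, and the log2 fold change was 0.86 ± 0.19 (1.81-fold, 1.39 to 2.36, adjusted p = 0.000169). This rise ranked 390th from the highest of 2019 tested probes, of which 67.8% were called. At 100 ppm they read 2.22, 2.20, 1.58, 1.3 and 1.92 CPM, all below every control. The log2 fold change was -0.93 ± 0.21 (0.523-fold, 0.392 to 0.699, adjusted p = 0.017). At 250 ppm they read 2.57, 3.02, 4.42, 2.16 and 2.67 CPM, with 4 of 5 among the controls. The log2 fold change there was -0.55 ± 0.21 (adjusted p = 0.0482). At 1, 10 and 30 ppm it was -0.38, -0.37 and -0.64, with no call.

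The lower calls of Hsp90aa1 rest on the control group and on single libraries. Control F8 stood at 7.25 CPM with the next at 4.46 CPM. Without it the log2 fold change was -0.74 at 100 ppm (adjusted p = 0.0292) and -0.35 at 250 ppm (adjusted p = 0.141), and 1.05 at 500 ppm. The call at 100 ppm was lost without F403 (-0.88, adjusted p = 0.0669) or F404 (-0.84, adjusted p = 0.0654). The call at 250 ppm was lost without any 1 of controls F4, F5, F7, F8 and F9 or of exposed F501, F502, F504 and F505, over values from -0.55 to -0.35, and with library totals in place of TMM factors it was -0.23 (adjusted p = 0.402). The control livers of 1,4-DCB held less Hsp90aa1 than those of 1,2-DCB, 2.33 ± 0.45 against 3.47 ± 1.48 CPM (n = 10 each). That difference between unexposed groups was -0.63 ± 0.15 on the log2 scale and was called (adjusted p = 0.0292), where 0.67% of probes were called in liver and 1.18% over the other 4 tissues. Hspb1 and Hspa8 did not pass in this comparison of controls in any tissue, nor did Hsp90aa1 outside the liver. Reads were few, from 62 to 541 per 1,2-DCB liver.

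In 1,4-DCB livers Hsp90aa1 was not called at any concentration. At 800 ppm it read 1.23, 2.77, 2.54, 1.45 and 2.99 CPM in F601 to F605, beside controls of 1.66 to 3.20 CPM, with F601 and F604 below every control. Against these controls the change was -0.20 ± 0.17 on the log2 scale (95% interval -0.53 to 0.12, adjusted p = 0.368). In all, none of the 3 genes was called in the liver at 800 ppm, where 34.9% of probes were, at 400 ppm, where 6.44% were, or at 1 to 150 ppm, where 0% were.

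In the ovary, Hsp90aa1 fell at 800 ppm of 1,4-DCB. Controls ran from 33.2 through a median of 49.6 to 77.1 CPM, and the exposed ovaries read 31.4 (F601), 27.9 (F602), 29.3 (F603), 28.2 (F604) and 29.1 (F605) CPM. All 5 lay below every control and close together. This was a log2 fold change of -0.81 ± 0.19 (0.572-fold, 0.441 to 0.742, adjusted p = 0.00668), beside 8.47% of probes called. At 400 ppm the ovaries read 63.4, 87.9, 35.7, 58.7 and 42.7 CPM, overlapping the controls. With 1,2-DCB the ovary means of Hsp90aa1 were 38.5 ± 6.43 CPM at 250 ppm and 40.5 ± 6.67 CPM at 500 ppm (n = 5 each) against 56 ± 14.3 CPM in controls (n = 10). Those log2 fold changes, -0.54 ± 0.22 and -0.49 ± 0.22, were not called (adjusted p = 0.43 and 0.23). Hspa8 in the 1,4-DCB ovary at 800 ppm was at -0.35 ± 0.13 and was not called (adjusted p = 0.0772), but passed with DESeq2 (-0.36, adjusted p = 0.0463) and without control F1 (-0.39, 0.0455) or F4 (-0.40, 0.0365). The ovarian cell markers (steroidogenic and gonadal genes, 7 on the panel) summed to 15660 to 21396 CPM in these ovaries and to 8936 to 15447 CPM in their controls, with 2 called higher and none at 0. Their part in the Hsp90aa1 result was not tested. In bulk tissue, fewer cells of a type and less RNA per cell cannot be told apart.

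**Figure D3:**
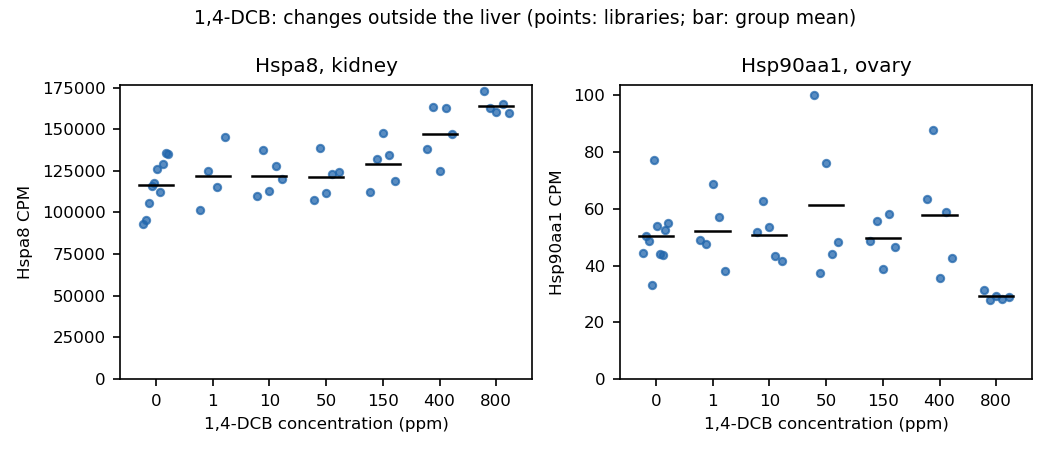
CPM of Hspa8 in kidney (left) and of Hsp90aa1 in ovary (right) in single libraries against 1,4-DCB concentration in ppm, on linear axes from 0; black bars are group means. At 800 ppm the 5 kidneys sit above and the 5 ovaries below all of their controls.

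Outside the liver the 3 genes gave 2 calls in all, the kidney and ovary calls above. At the top concentration of 1,2-DCB, where 12% of probes were called in heart, 16.4% in kidney, 8.85% in lung and 2.91% in ovary, none of the 3 was. At 800 ppm of 1,4-DCB none was called in heart (6.86% of probes) or lung (5.91%). At the 5 lower concentrations, none was called in these 4 tissues, where 0.289% of probe tests of 1,2-DCB and 0.011% of 1,4-DCB were. The nearest was Hspb1 in kidney at 10 ppm of 1,2-DCB, with 295, 74.2, 71.7, 62.98 and 108.1 CPM in F201 to F205 beside controls of 40.6 to 83.9 CPM. F201 and F205 stood above the controls and the rest among them. Its log2 fold change was 0.88 ± 0.23 (adjusted p = 0.085), and without F201 it was 0.29 (adjusted p = 0.987). It was called with DESeq2 (0.89, adjusted p = 0.0208) and in 4 of 14 fits that left out 1 library, those without control F8, F202, F203 or F204 (0.91 to 1.05, lowest adjusted p = 0.0169).

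**Figure D4:**
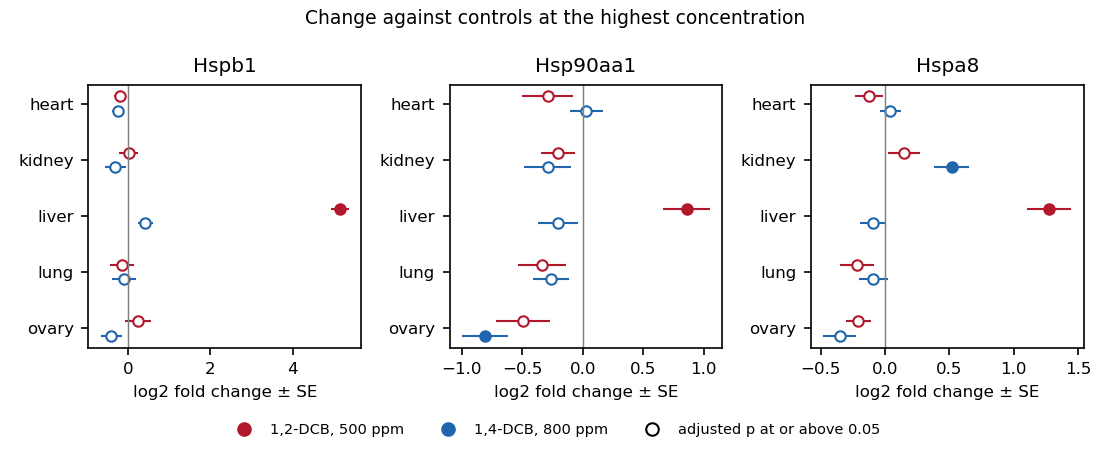
Log2 fold change ± SE against own controls at 500 ppm of 1,2-DCB (red) and 800 ppm of 1,4-DCB (blue) in each tissue; filled points passed an adjusted p below 0.05. The 3 red liver points are filled, at 5.15 for Hspb1, 0.86 for Hsp90aa1 and 1.27 for Hspa8, and the filled blue points are Hspa8 in kidney and Hsp90aa1 in ovary.

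The difference between tissues was tested directly. At 500 ppm of 1,2-DCB the change of Hspb1 in liver exceeded that in heart by 5.13 ± 0.38, in kidney by 4.97 ± 0.38, in lung by 5.10 ± 0.41 and in ovary by 4.75 ± 0.38 on the log2 scale (adjusted p from 1.78e-25 for heart to 1.25e-22 for lung). For Hspa8 the liver exceeded the other tissues by 0.98 to 1.32 and for Hsp90aa1 by 0.91 to 1.19, and all 12 differences were called. The share of probes called for the same differences was 38.7% for heart, 40.1% for kidney, 38.9% for lung and 41.4% for ovary. At 800 ppm of 1,4-DCB, 1 of 12 was called. The change of Hspa8 in liver was lower than that in kidney by -0.74 ± 0.18 (adjusted p = 0.00123), where 11.6% of probes were called; the shares were 14.8% for heart, 15.3% for lung and 21.1% for ovary. For Hsp90aa1 the change in liver minus that in ovary was 0.46 ± 0.25 and was not called (adjusted p = 0.174).

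The isomers can be compared at 1 and 10 ppm, where their concentrations match. They differ in the placing of the chlorine atoms, which are neighbours on the ring in 1,2-DCB and opposite in 1,4-DCB. Over 3 genes, 5 tissues and both concentrations, 30 differences of change were tested and none was called, as against 0.207% of probe tests. In liver at 10 ppm the change with 1,4-DCB minus that with 1,2-DCB was -0.31 for Hspb1 (95% interval -0.90 to 0.27), 0.12 for Hspa8 (-0.29 to 0.52) and 0.29 for Hsp90aa1 (-0.23 to 0.82). At 1 ppm these were -0.45 (-1.04 to 0.14), 0.00 (-0.41 to 0.40) and 0.29 (-0.24 to 0.82). The lowest adjusted p was that of Hspb1 in kidney at 10 ppm, -1.08 (-1.79 to -0.37, adjusted p = 0.309). F201 of 1,2-DCB, at 295 CPM, is in that comparison. At higher concentrations the doses differ and no test was made. Side by side, liver Hspb1 reached a mean of 163 ± 40.0 CPM at 500 ppm of 1,2-DCB, and 5.70 ± 1.23 and 5.80 ± 1.76 CPM at 400 and 800 ppm of 1,4-DCB (n = 5 each). Liver Hspa8 was at 42279 ± 17980 CPM in the first and at 12845 ± 1898 and 11086 ± 2298 CPM in the others.

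Other genes of the chaperone system were taken from 7 lists, of which the list of heat shock factors has no gene on the panel. In liver at 500 ppm of 1,2-DCB, 3 of 3 tested HSP70 and HSP110 genes rose, with a median log2 fold change of 1.41 beside 0.03 over all tested probes. Of those 2019 probes 707 were called higher and 661 lower, 67.8% in all, so that calls of single genes are common in this comparison. Hspa4, an HSP110 that recharges HSP70, went from 16.4 ± 1.88 (n = 10) to 48.6 ± 10.8 CPM (n = 5), a log2 fold change of 1.16 ± 0.09 (adjusted p = 1.43e-14). Hspa1a, the stress-inducible HSP70, went from 1.83 ± 1.01 to 25.4 ± 38.5 CPM (3.35 ± 0.52, adjusted p = 7.15e-07), and its reads may be shared with its near copy Hspa1b. The panel's own probe of Hspa1b read 0 CPM in all of these livers and their controls. Hspa2, an HSP70 known from the testis, also rose but stayed at 0.44 ± 0.45 CPM. Cryab, the other small heat shock protein on the panel, rose from 0.12 ± 0.10 to 1.79 ± 0.49 CPM (3.54 ± 0.37, adjusted p = 7.74e-11), still a level of few reads.

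Of the J-domain proteins and exchange factors, which start and end the HSP70 cycle, 4 of 7 rose and none fell (median 0.47), a share of calls not above the 67.8% of all probes. They were Dnaja3 (0.47 ± 0.06), Bag3 (1.22 ± 0.20), Dnajc15 (0.31 ± 0.07) and Dnajb1 (0.52 ± 0.21). Dnaja3 and Dnajc15 serve mitochondria. Of the HSP90 partners, Fkbp5, an immunophilin that glucocorticoids are known to induce, rose by 1.16 ± 0.15 and Fkbp4 fell by 0.46 ± 0.18. Of the chaperonins, the mitochondrial Hspd1 (0.96 ± 0.09) and the cytosolic Cct2 (0.73 ± 0.10) and Cct7 (0.59 ± 0.13) rose and the mitochondrial Trap1 fell (-0.28 ± 0.10). All 6 tested chaperones of the endoplasmic reticulum fell, among them Pdia6 (-1.16 ± 0.15), Calr (-0.63 ± 0.12), Serpinh1 (-0.75 ± 0.19) and Hsp90b1 (-0.48 ± 0.13), with a list median of -0.65, beside 661 of 2019 probes called lower. That count depends on the scaling: with library totals alone 1 of the 6, Pdia6, was called lower (-0.75), neither Fkbp4 nor Trap1 was, and 7 of 7 J-domain proteins and exchange factors were called higher.

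The 5 rats at 500 ppm of 1,2-DCB did not share the size of these changes evenly. The ratios given here are of CPM without TMM factors, so they are not on the scale of the fitted changes. Rat F601 had the lowest liver ratio to the control median for Hspa8 (1.39) and Hsp90aa1 (1.78), yet the second highest for Hspb1 (58.6). The same rat was lowest for Hspa1a (2.02), Hspa4 (2.01) and Bag3 (1.51). Rat F605 was highest for Hspb1 (59.04), Hspa8 (5.23), Hspa1a (57.96), Hspa4 (3.84), Dnajb1 (4.03) and Bag3 (6.37). The order was otherwise for Dnajc15, where F605 was lowest (1.39), for Dnaja3, where F601 (1.65) and then F605 (1.72) were lowest, and for Dnajb1, where F603 was lowest (0.95). Hspa1a read 3.24, 21.5, 5.58, 3.87 and 92.9 CPM in F601 to F605 beside controls of up to 4.33 CPM, so F601 and F604 stood among the controls.

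**Figure D5:**
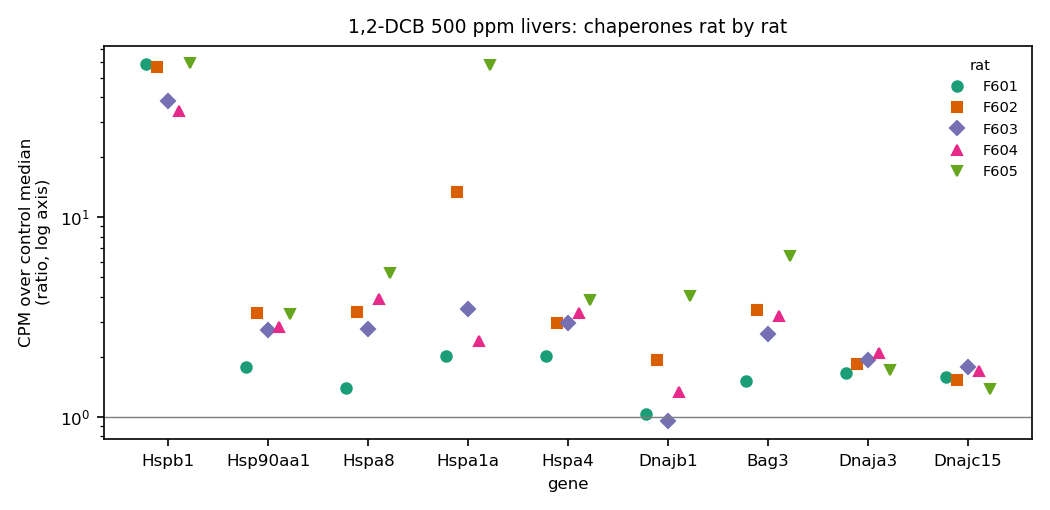
Ratio of CPM to the control median, on a log axis, in the livers of rats F601 to F605 at 500 ppm of 1,2-DCB for the 3 genes and 6 called partners; the grey line marks the control median. Hspb1 is at 34.2 or more in every rat, while Hspa1a spreads from 2.02 to 57.96 with F605 highest. CPM here carry no TMM factors, unlike the fitted changes.

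At 250 ppm of 1,2-DCB in liver few genes of the lists were called, beside 24.8% of all probes. Hspd1 (0.49 ± 0.09) and Dnaja3 (0.34 ± 0.06) were called higher and Dnajb1 (-0.66 ± 0.22) and Hspa5, the main HSP70 of the endoplasmic reticulum, lower (-0.55 ± 0.20). The 3 tested HSP70 and HSP110 genes had no call there, with a median of -1.16, in the same livers in which Hspb1 was called higher. With library totals alone 775 of 2019 probes were called higher and 48 lower at 250 ppm, in place of 273 and 227. The median of all tested probes was then 0.31 in place of -0.02. The list genes were not refitted with totals at 250 ppm, so their lower values may depend on the scaling. At 800 ppm of 1,4-DCB in liver, where 34.9% of probes were called, Hspa4 (0.25 ± 0.08), Dnaja3 (0.50 ± 0.07), Dnajc15 (0.28 ± 0.05), Hspd1 (0.70 ± 0.08), Cct2 (0.35 ± 0.11), Trap1 (0.32 ± 0.06) and Hyou1 (0.36 ± 0.12) were called higher and Hspa1a lower (-1.29 ± 0.51). Hspa1a was not called lower there with library totals alone. In heart at 500 ppm of 1,2-DCB, 5 of 6 chaperones of the endoplasmic reticulum fell, by up to -0.69 ± 0.19 for Hspa5, with a list median of -0.55, beside 12% of all probes called in either direction. Fkbp5 rose there by 1.13 ± 0.22. Of 6 fibroblast markers tested in these hearts 4 were called lower, against the same background, and their part in the result was not tested. In kidney and ovary at 800 ppm of 1,4-DCB no gene of the 7 lists was called, beside 5.03% and 8.47% of probes.

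Cell type markers were also called in the liver, beside the 67.8% of probes called at 500 ppm of 1,2-DCB. At 500 ppm of 1,2-DCB the 8 hepatocyte markers on the panel summed to 585919 to 638284 CPM against 448637 to 518358 CPM in controls, with 1 called higher and 6 lower. The 7 markers of bile duct and other simple epithelium, of which 5 were tested and 2 called higher, summed to 103.8 to 206.8 CPM against 29.7 to 59.1 CPM. The 4 macrophage markers, all called lower, summed to 22.02 to 32.97 CPM against 29.04 to 50.9 CPM, and no marker of these 3 lists was at 0 throughout. Also called lower were 3 of 4 tested fibroblast, 2 of 4 endothelial, 2 of 3 lymphocyte, 2 of 3 neutrophil and 2 of 2 red cell markers, with none higher, and neither of 2 smooth muscle markers was called. The sums are CPM of library totals while the calls use TMM factors, and the marker calls were not repeated with totals alone. With totals alone 397 of 2019 probes were called lower in place of 661, and the median of all tested probes was 0.44 in place of 0.03. The part of these markers in the chaperone results was not tested.

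Over the 80 liver libraries of both compounds, each centred on its own control mean, the probes whose log2(CPM + 1) was most like that of Hspb1 were Zwint (Pearson r = 0.95), a kinetochore protein, Txnrd1 (0.91), a thioredoxin reductase, Psmd4 (0.90), a proteasome subunit, Atp6v1d (0.90), a subunit of the vacuolar proton pump, and Usp14 (0.90), a deubiquitinase of the proteasome. For Hspa8 they were Usp14 (0.84), Sqstm1 (0.84), the autophagy receptor p62, Ero1l (0.82), Eif4e (0.82) and Aldoa (0.82). For Hsp90aa1 they were Hspa8 (0.79), LOC100362453 (0.77), Psmc1 (0.77), Usp14 (0.74) and Krt18 (0.73). The median r over the same 478 probes was 0.06 for Hspb1 and 0.02 for Hsp90aa1, and 0.04 over 477 for Hspa8. These values describe the libraries, which share totals and treatment groups, and the livers at 500 ppm of 1,2-DCB weigh most in them.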

How the data were processed

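The authors deposited raw read counts adjusted for attenuation, as whole numbers for every probe. Bowtie 1.3.1 is named in the submitters' processing notes. Sources used here name neither the probe reference nor the genome build, so coordinates come from RefSeq's GRCr8 table alone. Groups follow the labelled compound, concentration and tissue, and 9 libraries that the submitters mark as not used (5 for depth, 2 for alignment rate, 2 as outliers) entered an alternative only.

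CPM are counts per M counts of the library total. For each tissue and compound, 7 groups entered 1 fit of edgeR's quasi-likelihood test (edgeR 4.0.16 in R 4.3.3, robust, TMM, filterByExpr), giving 10 fits and 60 comparisons. Calls needed a p below 0.05 after Benjamini-Hochberg adjustment over all probes of the comparison. Changes are log2 fold changes ± SE, where the SE is the absolute change divided by the square root of the test's F statistic. The 95% intervals are ± 1.96 SE. That multiplier is a normal approximation, so the intervals are somewhat narrow beside the p-values of the quasi-likelihood test. Tissue differences used 1 joint fit per compound, and compound differences 1 per tissue. The fits were tested on simulated counts. Alternatives were DESeq2 1.42.0, its size factors, limma 3.58.1 voom, other filters, a fit of 1 exposed group with its controls, the unused libraries included, counts divided by the step, totals without the 3 genes, each library left out in turn, and the rat as a block. Library totals without TMM factors were added after seeing the data.

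The rat number in the titles names the same animal in every tissue, so libraries of different tissues are paired. Their residuals correlated weakly, with a median r of 0.0531 to 0.113 over tissue pairs. The members and gene lists were chosen with earlier results of these data known. Named genes are the 3 genes, up to 4 called genes of each list with the smallest p at the top concentration, every measured small heat shock protein, and for each of the 3 genes the 5 most similar probes of at least 20 CPM in liver. Genes named at 250 ppm and for heart were chosen after their values were seen. PCR reads carry no molecular identifiers, so the depth speaks to counting error only. The rats are separate animals, as the titles give them.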

Additional observations from a re-analysis of the deposited data

Results flagged for a closer look

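Of 207 groups of 4 to 10 libraries, 20 held a library whose gap to its nearest neighbour passed Dixon's 95% limit, where chance gives about 1 in 20 groups. For Hspb1 in kidney the libraries far above the rest were F201 at 295 CPM (10 ppm 1,2-DCB, next 108.1), control F1 of 1,4-DCB at 99.8 CPM (next 65.7), F405 at 214 CPM (150 ppm 1,4-DCB, next 82.8) and F505 at 155.8 CPM (400 ppm 1,4-DCB, next 58.9), and F102 was low at 34.6 CPM (1 ppm 1,2-DCB, next 58.6). For Hspb1 elsewhere, F204 was low at 386 CPM in lung (10 ppm 1,2-DCB), and F303 was high at 1095 CPM in lung (30 ppm 1,2-DCB) and F104 at 793 CPM in heart (1 ppm 1,4-DCB).

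For Hsp90aa1 the high libraries were F101 at 38.8 CPM and F202 at 21.8 CPM in heart (1 and 10 ppm 1,2-DCB), F401 at 20.99 CPM in kidney (100 ppm 1,2-DCB), control F8 of 1,2-DCB at 7.25 CPM in liver, F103 at 145.9 CPM in ovary (1 ppm 1,2-DCB), control F1 of 1,4-DCB at 54.4 CPM in kidney and control F5 of 1,4-DCB at 77.1 CPM in ovary. F203 was low at 14.1 CPM in kidney (10 ppm 1,2-DCB). For Hspa8, F205 was high at 173675 CPM in kidney (10 ppm 1,2-DCB), F104 at 17642 CPM in liver (1 ppm 1,2-DCB) and F503 at 151418 CPM in lung (250 ppm 1,2-DCB), and control F1 of 1,2-DCB was low at 87410 CPM in lung. The kidney of control F1 of 1,4-DCB stood apart for both Hspb1 and Hsp90aa1.

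The change at 500 ppm of 1,2-DCB differed between liver and each other tissue by the joint test. In the order heart, kidney, lung and ovary, the liver exceeded them on the log2 scale by 5.13, 4.97, 5.10 and 4.75 for Hspb1, by 1.198, 0.98, 1.304 and 1.32 for Hspa8, and by 0.94, 0.91, 1.00 and 1.19 for Hsp90aa1. At 800 ppm of 1,4-DCB the change of Hspa8 in liver minus that in kidney was -0.74.

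Of 7 lung libraries of 1,4-DCB marked as not used, 3 lay above the highest used control for Hsp90aa1 and 2 for Hspa8. That control was at 61.5 CPM for Hsp90aa1 and 161232 CPM for Hspa8. F502 and F504, both at 400 ppm and marked as outliers by the submitters, read 102.9 and 124.2 CPM of Hsp90aa1 and 174301 and 204164 CPM of Hspa8. F102 at 1 ppm read 130 CPM of Hsp90aa1, which is 1 count.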

How the results depend on the processing

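Directions of the called changes held under every alternative run. Hspb1 and Hspa8 in liver at 500 ppm of 1,2-DCB, and Hspb1 at 250 ppm, stayed called in every alternative run. For liver Hspb1 the filter at a mean of 20 CPM gives no support, since the probe passes it only through the 500 ppm group. Leaving out 1 library at a time gave log2 fold changes of -1.03 to -0.74 for liver Hsp90aa1 at 100 ppm, -0.78 to -0.35 at 250 ppm, 0.46 to 0.57 for kidney Hspa8 at 800 ppm of 1,4-DCB, -0.40 to -0.31 for ovary Hspa8 at 800 ppm, 0.25 to 0.55 for liver Hspb1 at 800 ppm, and 0.29 to 1.05 for kidney Hspb1 at 10 ppm of 1,2-DCB. Calls were lost or gained within each of these 6 ranges. In a fit of the exposed group and its controls alone, liver Hsp90aa1 was -0.93 at 100 ppm (adjusted p = 0.1) and -0.55 at 250 ppm (0.161), neither called. The 250 ppm call was also lost with DESeq2 size factors (-0.54, 0.0503), with no filter (-0.55, 0.0556), with limma voom (-0.51, 0.0574) and with library totals, added after seeing the data (-0.23, 0.402). Totals also brought calls for lung Hsp90aa1 (-0.43, 0.0362) and liver Hspb1 (0.50, 0.029) at 800 ppm of 1,4-DCB, and DESeq2 for ovary Hspa8 (-0.36, 0.0463) and kidney Hspb1 at 10 ppm of 1,2-DCB (0.89, 0.0208). With libraries marked as not used included, Hsp90aa1 (1.02, 0.00238) and Hspa8 (0.45, 0.0143) were called in lung at 400 ppm of 1,4-DCB. The cause of these shifts was not tested. With the rat as a replicate block, the 24 tissue differences kept their calls, for example 5.15 for Hspb1 in liver against heart. A filter at a mean of 20 CPM left out Hspb1 in 1,4-DCB livers and Hsp90aa1 in heart, kidney and liver. Control livers held few reads of Hspb1 and Hsp90aa1, which limits the precision of both there.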
